A study of Drosophila melanogaster with 2 samples.

Results

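Of the 3725 intervals bound by Tailless-GFP past the authors' reproducibility threshold, 297 held more than 1 summit, a summit being a position at which the bound signal peaks. These several-summit intervals were chosen from the peak calls themselves: an interval belonged to them where 2 or more entries of the thresholded list shared its arm, start and end. They made up 7.97% of the intervals and carried 617 of the 4045 summits, or 15.3%. The other 3428 intervals held 1 summit each and are called single-summit intervals. The number of summits, their spacing, the interval width and the signal all come from the calls that chose the members, so they are described below with no test.

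The study used chromatin immunoprecipitation with sequencing (ChIP-seq), in which an antibody to GFP pulled down DNA bound by Tailless with GFP at its C terminus. The material was whole embryos of Drosophila melanogaster, mixed in sex and 0 to 4 h old, from the transgenic line 8T-GFP, which stably expresses the fusion protein. There was 1 group, with 2 biological replicates numbered 1 and 3, and no untreated or untagged samples were analysed here. Because the embryos were taken whole, a summit can come from any of their cells, and summits in the same interval need not have been bound in the same cells or at the same stage. Sonication left fragments of 200 to 800 bp, so the distances between summits given below are of the order of the fragment length. The signal of a summit is the authors' enrichment value from their peak caller, whose scale is not given in the sources used here, and the sequencing depth is unknown.

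Tailless is an orphan nuclear receptor of the gap class that acts mostly as a repressor of transcription at the termini of the early embryo, downstream of the Torso receptor, and later in the brain and optic lobe. It binds the nuclear receptor half-site AAGTCA, usually as the longer AAAGTCA. Enhancers of early patterning genes often hold several binding sites for the same factor and are opened by Zelda, a zinc finger protein that binds CAGGTA.

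Short stretches across both summits of 6 intervals that hold 2 summits each are shown because the Tailless word AAGTCA stood near both summits, near the stronger summit, near the weaker summit or near neither. Each stretch is 300 bases of the plus strand of the dm6 assembly, 5′ to 3′, taken from the RefSeq copy of that genome, with AAGTCA and CAGGTA on either strand in capitals. Nearest to the Hox gene Abd-B the stretch is chr3R:16936440-16936739, in an intron, with the stronger summit at base 50 and the weaker at base 251. Nearest to Ilp4, which encodes an insulin-like peptide, it is chr3L:9804280-9804579, also in an intron, with summits at bases 46 and 255. An intron here may belong to any annotated gene, not only to the gene named. The stretch 21.1 kb from the transcription start site (TSS) of the pair-rule gene ftz is chr3R:6885337-6885636, with summits at bases 47 and 254. The stretch 3.58 kb upstream of the pair-rule gene opa is chr3R:4849182-4849481, with summits at bases 50 and 251. The stretch 1.51 kb upstream of CG3942 is chr3R:12252635-12252934, with summits at bases 47 and 253. The stretch 4.12 kb downstream of the TSS of the pair-rule gene prd, in a non-coding exon, is chr2L:12081212-12081511, with summits at bases 46 and 255. In each stretch the stronger summit comes first.
Abd-B: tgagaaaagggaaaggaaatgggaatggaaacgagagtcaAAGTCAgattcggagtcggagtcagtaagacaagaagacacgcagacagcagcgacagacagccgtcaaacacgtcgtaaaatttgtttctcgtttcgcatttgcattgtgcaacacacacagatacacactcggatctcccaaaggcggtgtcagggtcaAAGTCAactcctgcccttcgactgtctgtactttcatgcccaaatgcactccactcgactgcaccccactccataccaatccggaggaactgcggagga
Ilp4: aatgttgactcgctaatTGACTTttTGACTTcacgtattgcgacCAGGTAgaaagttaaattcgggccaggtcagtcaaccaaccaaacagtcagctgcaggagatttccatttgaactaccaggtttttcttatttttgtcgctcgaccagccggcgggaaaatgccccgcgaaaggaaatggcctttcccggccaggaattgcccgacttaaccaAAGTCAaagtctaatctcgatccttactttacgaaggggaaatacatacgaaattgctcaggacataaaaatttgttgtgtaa
ftz: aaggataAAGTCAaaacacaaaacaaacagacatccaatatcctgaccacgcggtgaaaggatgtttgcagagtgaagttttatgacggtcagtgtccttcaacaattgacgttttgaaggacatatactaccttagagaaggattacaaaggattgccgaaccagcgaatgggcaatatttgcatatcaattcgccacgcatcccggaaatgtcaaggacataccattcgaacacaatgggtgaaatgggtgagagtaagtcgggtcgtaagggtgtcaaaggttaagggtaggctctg
opa: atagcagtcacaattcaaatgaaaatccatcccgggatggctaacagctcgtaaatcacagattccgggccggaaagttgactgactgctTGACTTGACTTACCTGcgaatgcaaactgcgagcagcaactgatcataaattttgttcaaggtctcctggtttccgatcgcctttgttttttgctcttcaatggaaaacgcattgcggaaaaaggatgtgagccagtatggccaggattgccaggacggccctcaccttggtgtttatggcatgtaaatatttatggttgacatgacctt
CG3942: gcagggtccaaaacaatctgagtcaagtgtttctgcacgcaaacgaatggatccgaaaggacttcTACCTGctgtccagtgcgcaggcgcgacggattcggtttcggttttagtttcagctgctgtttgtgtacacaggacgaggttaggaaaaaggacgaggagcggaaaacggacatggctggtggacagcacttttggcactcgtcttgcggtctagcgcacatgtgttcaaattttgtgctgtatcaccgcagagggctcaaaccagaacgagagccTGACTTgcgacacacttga
prd: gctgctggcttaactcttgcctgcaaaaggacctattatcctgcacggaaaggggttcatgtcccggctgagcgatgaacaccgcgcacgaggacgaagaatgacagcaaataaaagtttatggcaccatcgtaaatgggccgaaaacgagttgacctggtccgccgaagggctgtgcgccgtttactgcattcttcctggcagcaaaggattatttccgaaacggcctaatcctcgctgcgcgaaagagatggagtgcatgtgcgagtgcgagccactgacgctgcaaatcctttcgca

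In the Abd-B stretch AAGTCA at bases 41 to 46 lay 6 bp from the stronger summit, and AAGTCA at bases 202 to 207 lay 46 bp from the weaker. The Ilp4 stretch held AAGTCA 3 times and CAGGTA 1 time, with CAGGTA 2 bp from the stronger summit. At opa, 2 overlapping copies of AAGTCA on the minus strand ran into a copy of CAGGTA, 44 to 54 bp from the stronger summit and 147 to 157 bp from the weaker. At CG3942 the Tailless word stood at the weaker summit: AAGTCA lay 32 bp from the weaker summit, while CAGGTA lay 22 bp from the stronger. The prd stretch, across the interval with the second highest signal, held neither word. A match is a run of letters and not a measured binding site.

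Most several-summit intervals held a close pair. Of the 297 intervals, 283 held 2 summits, 12 held 3, 1 held 6 and 1 held 9. The 12 with 3 summits, named after their values were seen, lay nearest to kni, Tim17b2, hry, eve, knrl, ush, upd1, Ppa, hll, egr, CG1835 and chn. The 320 distances between neighbouring summits in an interval had a median of 203 bp, with quartiles of 201 and 211 bp and a range of 199 to 1805 bp. In 242 cases (75.6%) the distance was 199 to 211 bp, in 52 (16.3%) it was above that and at most 260 bp, and in 5 it was 1000 bp or more. The lowest value of 199 bp was also the lowest distance in the pooled list and in the list of each replicate, and the lowest distance between summits of separate thresholded intervals. Every list thus began at the same distance. In every stretch shown above, the stronger summit also came first along the arm. How often it did so over all several-summit intervals is not given here. What part of the pile just above 199 bp comes from the peak calling and what part from the DNA was not tested.

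**Figure D1:**
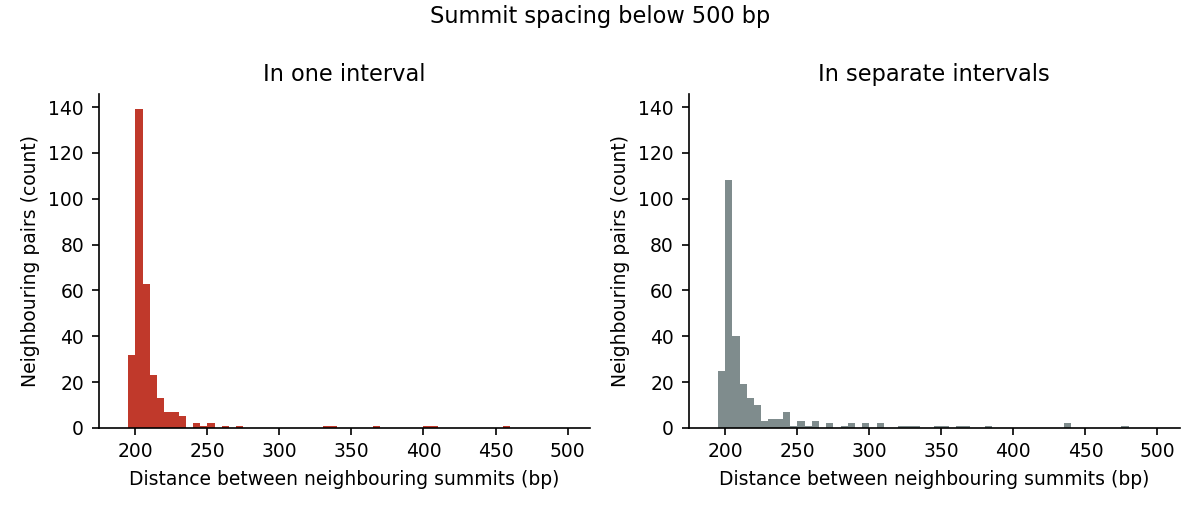
Distances below 500 bp between neighbouring summits, in the same interval (left) and in separate intervals (right), in bins of 5 bp, with the number of pairs on the y axis. Both distributions begin at 199 bp and crowd just above it.

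Close summits also occurred in intervals that the list wrote separately. Of 3719 neighbouring summits in separate intervals, 235 lay at most 250 bp apart and 359 at most 1000 bp, while their median distance was 9779 bp. Only 2 several-summit intervals overlapped another interval, against 486 single-summit ones. Grouping all summits that lay at most 250 bp from a neighbour would give 526 groups of 2 or more, so membership depends in part on how the list drew its intervals.

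Several-summit intervals lay toward the wide and strong end of the list. Their median width was 764 bp (quartiles 630 and 943, range 343 to 6001), against 473 bp (266 and 516, range 129 to 1627) for single-summit intervals. The most frequent width of the pooled list, 516 bp, was found in 1 several-summit interval (0.337%) and in 1316 single-summit ones (38.4%). The strongest summit had a median signal of 741 (range 259 to 3700.3) in several-summit intervals, against 271 (195 to 2432) in single-summit intervals. Their weakest summits had a median signal of 322 (196 to 1613), above the median of the single summits. Of the 25 strongest summits in the list 15 lay in several-summit intervals, and of the 100 strongest 74 did.

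**Figure D2:**
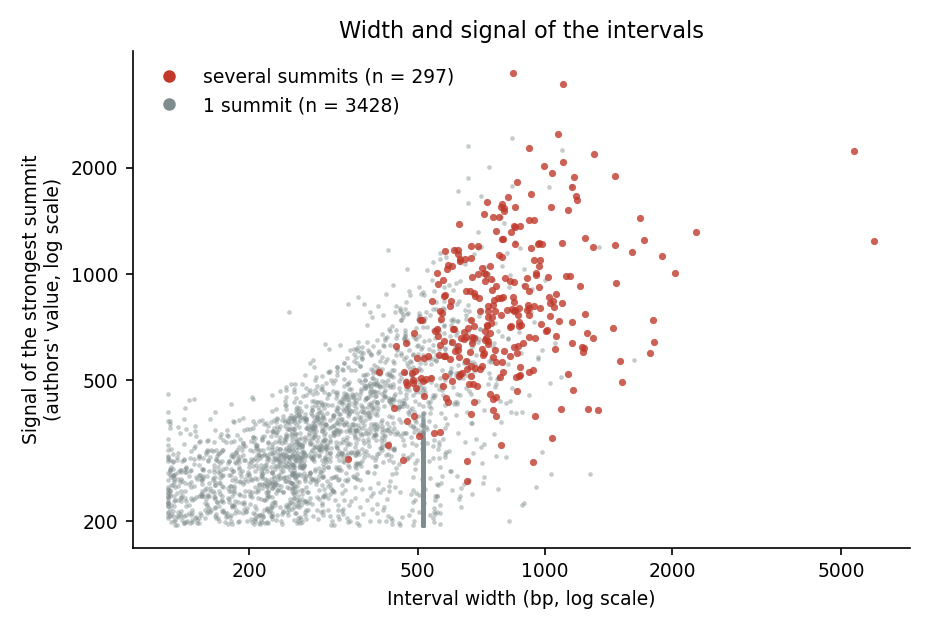
Width of each interval against the authors' signal of its strongest summit, both on log scales, for the 297 several-summit intervals (red) and the 3428 single-summit intervals (grey). The red points lie at the wide and strong end, and the vertical grey line of points marks the width of 516 bp.

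When all intervals were ranked by signal into 5 groups of equal size, the number holding several summits was 0, 0, 5, 22 and 270 in order of rising signal. Inside an interval the strongest summit had a median of 2.17 times the signal of the weakest (quartiles 1.66 and 2.80, range 1.02 to 10.1). The lowest signals that made an interval a member were 195.6, 196.0 and 197.5, and the highest pooled summits left out of thresholded intervals had 193.8, 191.0 and 188.9. With those left-out summits counted, 174 single-summit intervals would have held more than 1 summit.

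The summits recurred in the replicates' own lists, from which the thresholded list was derived, so this is a description and not separate support. In 292 of the 297 intervals (98.3%) replicate 1 had at least 2 summits of its own inside, in 286 (96.3%) replicate 3 had, and in 282 (94.9%) both had. Of the single-summit intervals 724 (21.1%) held 2 or more summits in both replicates. A summit of both replicates lay at most 100 bp from the strongest summit in 281 intervals (94.6%), from the weakest in 275 (92.6%), and from the single summit in 3230 single-summit intervals (94.2%). The median SD of the log2 signal over the replicates was 0.15 at the strongest and 0.35 at the weakest summits. This SD includes any difference in scale between the replicates' lists.

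The same summit was the stronger in both replicates in nearly all intervals that could be matched. Which summit counts as stronger was set by the pooled signal of these same replicates, so this is a description and not separate support. In 253 of the 2-summit intervals both summits could be matched in both replicates, and the summit that was stronger in the pooled list was stronger in both replicates in 251 of them. The exceptions, named after their values were seen, lay nearest to fz2, a Wnt receptor gene, where the summit stronger in the pooled list had 161 against 193 for the weaker in replicate 1, and nearest to CG13321, where it had 208 against 225 in replicate 3. The median ratio of the stronger to the weaker summit was 2.08 in replicate 1 and 2.37 in replicate 3.

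**Figure D3:**
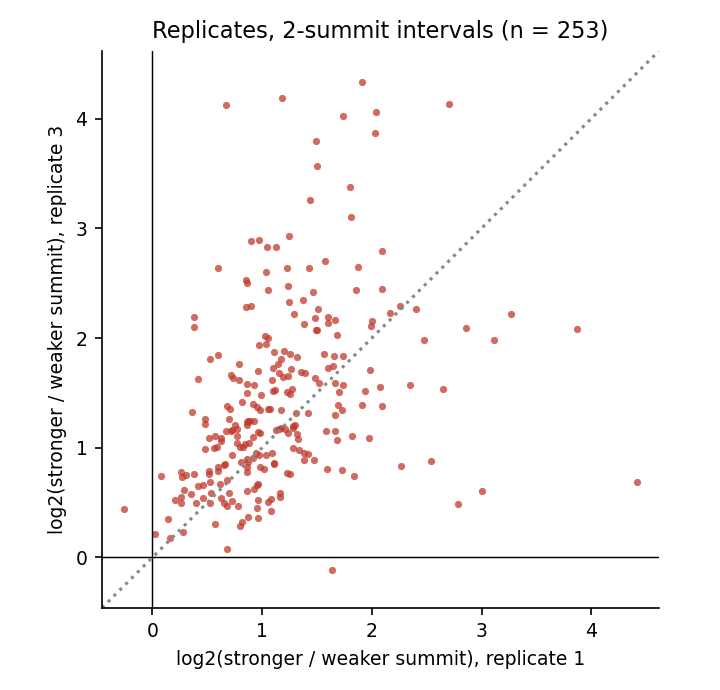
Log2 ratio of the stronger to the weaker summit in replicate 1 (x) and replicate 3 (y) for the 253 2-summit intervals with both summits matched in both replicates. All but 2 points lie above 0 on both axes; the dotted line marks equal ratios.

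Several-summit intervals lay near promoters less often than single-summit ones. The strongest summit lay within 500 bp of a protein-coding TSS in 55 of 297 several-summit intervals (18.5%, exact 95% interval 14.3 to 23.4), against 1412 of 3428 single-summit intervals (41.2%, 39.5 to 42.9; two-sided Fisher's exact test, adjusted p = 9.6e-15 over 7 location classes). By the same exact test, the share in 5′ UTR exons was 5.05% against 11.9% (adjusted p = 0.000604), in intergenic DNA 46.5% against 39.8% (adjusted p = 0.0462), and in non-coding exons 6.40% against 3.47% (adjusted p = 0.0363). The intergenic difference no longer passed the test under 8 of 11 alternatives, the 5′ UTR difference under 3 and the non-coding exon difference under 4. By the same exact test, introns held 41.4% against 42.1% (adjusted p = 0.854), coding sequence 0.337% against 1.72% (adjusted p = 0.122) and 3′ UTR exons 0.337% against 1.08% (adjusted p = 0.423). These p-values measure the spread over the intervals of 1 list, neighbouring intervals are not independent, and they say nothing of the spread between embryos.

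**Figure D4:**
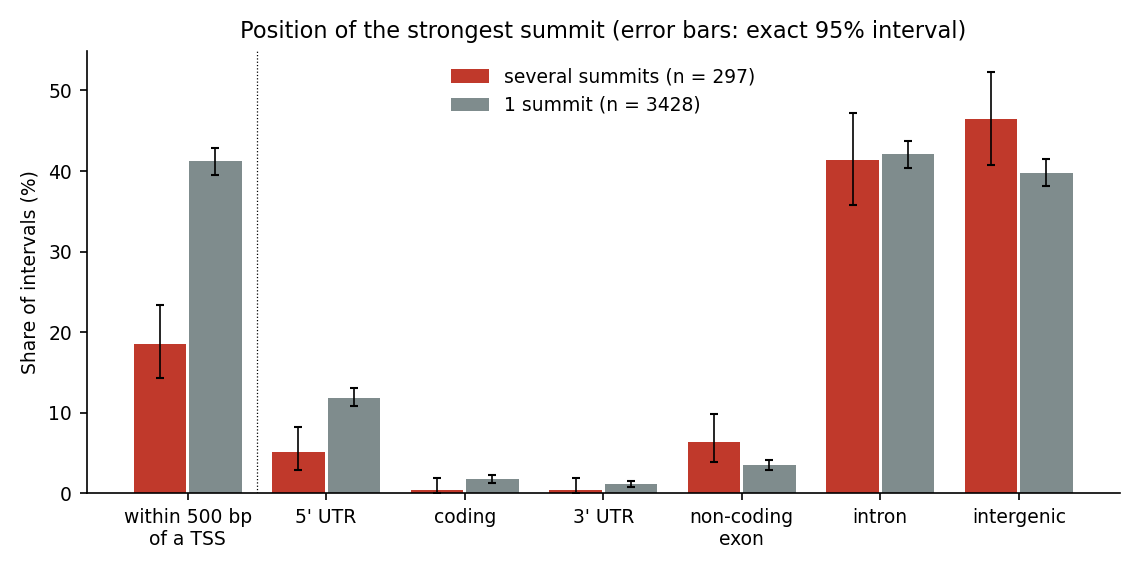
Share of several-summit intervals (red) and single-summit intervals (grey) whose strongest summit lies within 500 bp of a TSS (left of the dotted line) or in each annotated class (right of it), with exact 95% intervals. The share near a TSS is 18.5% against 41.2%.

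Signal and width differ between the kinds of interval, so the promoter share was also taken within signal groups and within a range of widths. Within the strongest of the 5 signal groups it was 18.5% for several-summit against 32.6% for single-summit intervals. With these groups as strata the difference was −14.9 percentage points (Cochran-Mantel-Haenszel test, n = 297 several-summit intervals, adjusted p = 3.3e-05). Only groups holding both kinds of interval enter that test, which leaves 740, 723 and 475 single-summit intervals in order of rising signal. Among intervals 546 to 1185 bp wide, the promoter share was 16.5% of 237 several-summit against 20.6% of 248 single-summit intervals (Fisher's exact test, adjusted p = 0.553). Those limits are the 10th and the 90th percentile of the several-summit widths. Within that range of widths the difference did not pass the test. With all summits at most 250 bp from a neighbour grouped, whatever their interval, the share was 30.2% of groups of 2 or more and 40.4% of lone summits (Fisher's exact test, adjusted p = 6.8e-05). The width of an interval and its number of summits come from the same call, and their parts in the promoter difference cannot be told apart.

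The median distance of the strongest summit from a TSS was 3091 bp in several-summit and 1148 bp in single-summit intervals. A TSS lay inside 49 several-summit intervals (16.5%) against 1045 single-summit ones (30.5%), and between the outermost summits in 18. All summits shared the nearest gene in 290 intervals and the location class in 264. In 130 of the 283 2-summit intervals (45.9%, exact 95% interval 40.02 to 51.9) the weaker summit was the nearer to a TSS. The X chromosome held 22 several-summit intervals (7.41%) against 400 single-summit ones (11.7%; two-sided Fisher's exact test, p = 0.0277), but with the signal groups as strata this was no longer past the threshold (p = 0.222). Without replicate 1 the shares were 2.94% and 12.1% (Fisher's exact test, p = 6.8e-05), and among intervals 546 to 1185 bp wide 8.02% and 14.9% (Fisher's exact test, p = 0.0224). The number of several-summit intervals per Mb was 2.81 on both 3L and 3R, 2.34 on 2L, 1.94 on 2R, 1.48 on chromosome 4 and 0.934 on the X.

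The Tailless word was found more often at the stronger than at the weaker summit. Within 50 bp of a summit, on either strand, AAGTCA was found at the strongest summit of 64 intervals (21.5%, exact 95% interval 17.0 to 26.7) and at the weakest summit of 23 (7.74%, 4.97 to 11.4). In 60 intervals it was at the strongest summit and not at the weakest, in 19 the other way round, and in 4 at both (two-sided exact McNemar test, adjusted p = 2.52e-05 over 12 words). The longer AAAGTCA was at 43 strongest and 10 weakest summits (exact McNemar test, adjusted p = 2.36e-05). At the summit with the lowest coordinate in each interval, AAGTCA was found in 21.5%, the same share as at the strongest. AAAGTCA was found there in 14.8%, against 14.5% at the strongest. The contrast thus did not separate strength from order along the arm, and the part of each was not tested. Leaving out replicate 1, which leaves 170 several-summit intervals among the strongest summits of replicate 3 alone, both words lost their call: AAGTCA was at 18.2% of the strongest and 8.24% of the weakest summits, and AAAGTCA at 11.2% and 3.53% (exact McNemar test, adjusted p = 0.0878 for each). Among intervals whose strongest and weakest summits lay at least 210 bp apart, AAGTCA was at 19.5% and 10.4% (exact McNemar test, adjusted p = 1), while AAAGTCA was at 15.6% and 1.30% (exact McNemar test, adjusted p = 0.041). In windows of the same length 1000 bp to either side, AAGTCA was found in 5.05% around the strongest and 5.72% around the weakest summits. The Zelda word CAGGTA was at 32 strongest and 32 weakest summits (10.8% each, exact McNemar test, adjusted p = 1), against 2.53% and 2.69% in the windows to the side. The other words, among them GAGAGA, which the GAGA factor binds, and TTTATG, which the homeodomain protein Caudal binds, did not pass the test.

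**Figure D5:**
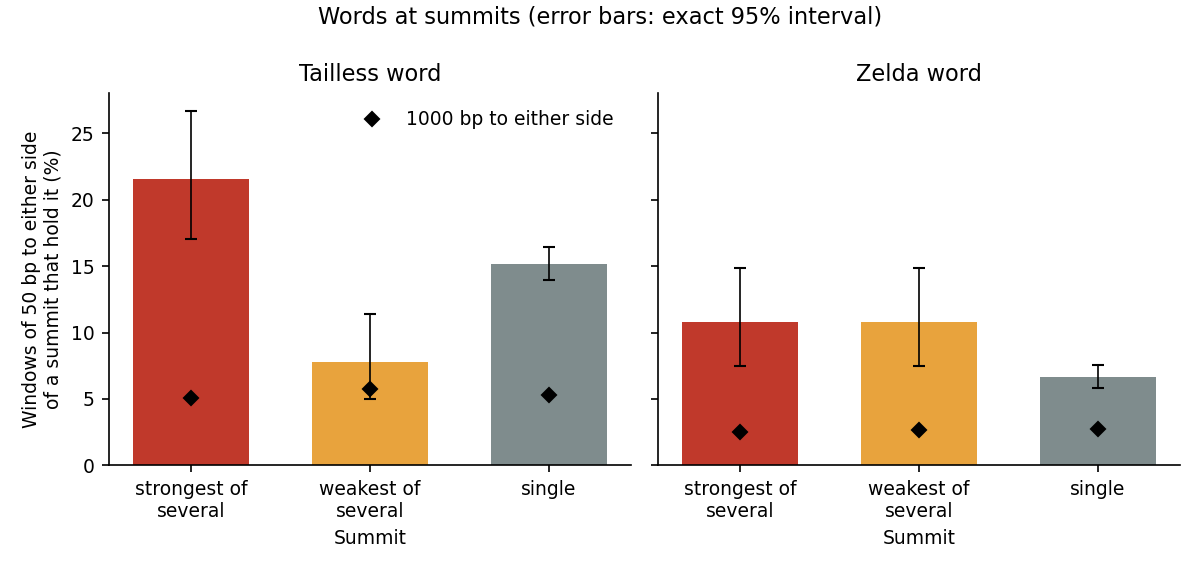
Share of windows of 50 bp to either side of a summit that hold the Tailless word (left) or the Zelda word (right), at the strongest and the weakest summit of several-summit intervals (n = 297) and at single summits (n = 3428), with exact 95% intervals. Diamonds give the share in windows 1000 bp to either side.

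The weaker summits also held AAGTCA less often than single summits of like signal. Over 5 strata of the weaker summits' signal, 7.74% of the 297 weakest summits had the word, against 16.6% of single summits weighted to the same signals (Cochran-Mantel-Haenszel test, n = 297 and 3376, adjusted p = 0.00123 over 12 words). In the same strata (n = 297 and 3376) AAAGTCA was at 3.37% against 8.97% (adjusted p = 0.0092), and CAGGTA at 10.8% against 7.17% (adjusted p = 0.129). Where the summits of an interval lay at least 210 bp apart, the shares for AAGTCA were 10.4% and 16.6% (n = 77 and 3280, adjusted p = 0.982). The AAAGTCA difference was also not past the threshold there (n = 77 and 3280, adjusted p = 0.383), nor without replicate 1 (n = 170 weaker summits, adjusted p = 0.05003), nor in a 25 bp window (n = 297 and 3376, adjusted p = 0.0521). Each weaker summit shared its interval with a stronger one, and what part of its signal comes from that neighbour was not tested. Order of the summits along the arm was not taken into account here either. This comparison was chosen after the shares above were seen.

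At their strongest summits, several-summit intervals held the Tailless word more often than single-summit intervals, but not with signal groups as strata. Among single-summit intervals its share was 10.1% in the weakest of the 5 signal groups and 23.2% in the strongest. AAGTCA was at 21.5% against 15.2% (Fisher's exact test, adjusted p = 0.0234), AAAGTCA at 14.5% against 8.23% (adjusted p = 0.00676) and CAGGTA at 10.8% against 6.65% (adjusted p = 0.0361), while CGATA, part of the site of the insulator protein BEAF-32, was at 8.42% against 14.2% (adjusted p = 0.0234). With the signal groups as strata the difference for AAGTCA was −1.01 percentage points (Cochran-Mantel-Haenszel test, n = 297 several-summit intervals, adjusted p = 0.904). Here too, only the 740, 723 and 475 single-summit intervals of groups holding both kinds enter the test. Within the strongest group the AAGTCA shares were 21.9% of several-summit and 23.2% of single-summit intervals. The AAGTCA difference lost its call under 6 further alternatives, and that of AAAGTCA did under 7, that of CAGGTA under 8 and that of the word CGATA under 6 alternatives. Over whole intervals, AAGTCA occurred 1.12 times per kb in several-summit and 0.991 times per kb in single-summit intervals, and CAGGTA 1.16 against 0.698 times per kb. The median GC content within 50 bp was 46.5% at the strongest summits, 45.5% at the weakest and 43.6% at single summits.

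In 83 intervals (27.9%) AAGTCA was at some summit, in 214 at none, and in 3 at every summit, those nearest to Abd-B, Ilp4 and the pair-rule gene odd. Between neighbouring summits at least 210 bp apart (78 pairs), AAGTCA was at the stronger summit in 14 pairs and at the midpoint in 7 (exact McNemar test, adjusted p = 0.757), and by the same test none of the 12 words differed, with 0 at an unadjusted p under 0.05.

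Genes that pattern the early embryo were among those with the strongest several-summit intervals. Each interval was given to 1 protein-coding gene, the one whose TSS was closest to the strongest summit, if no more than 20 kb away. By that rule 238 of 13945 protein-coding genes (1.71%) had at least 1 several-summit interval, and 2093 (15%) at least 1 single-summit interval. Of the 3580 intervals given to a gene, 278 (7.77%) held several summits. The lists below were drawn up with earlier results of these data known, so their counts stand beside those shares and were not tested. The shares were also not taken within signal groups, and the strongest group held 270 of the 297 several-summit intervals. What part of a list's share goes with the signal of its intervals was not tested. The nearest gene need not be the gene that an interval regulates. A summit called intronic lay in an intron of any annotated gene, which need not be the gene named.

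Among the gap genes, which divide the embryo into broad domains, 7 of 9 had a several-summit interval, and 11 of their 37 intervals (29.7%) held several summits. The gap gene kni had an interval of 3 summits and 1715 bp, 1.31 kb upstream of its TSS, with a signal of 1248 at the strongest summit and 417 at the weakest. The strongest had 547 in replicate 1 and 728 in replicate 3, and the weakest 302 and 223. Which summit counts as strongest was set by the pooled signal of these same replicates. At Kr, which specifies the trunk, the stronger summit of an intronic pair 208 bp apart had a signal of 976 and the weaker 383, and AAGTCA was at the stronger. The POU domain gene nub had signals of 797 and 339 at a pair in an intron, again with AAGTCA at the stronger summit. The gap genes gt and pdm2 had no several-summit interval, and had 3 and 4 single-summit ones.

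Of the pair-rule genes, which set up the stripes of alternate segments, 6 of 8 had a several-summit interval, and 9 of their 41 intervals (22.0%) held several summits. At prd the stronger summit had a signal of 3459.8 and the weaker 1243, 209 bp apart. In replicate 1 they had 1873 and 719, and in replicate 3 they had 1599 and 824, so the stronger was above the weaker in both replicates. The interval nearest to ftz, 4.02 kb downstream of its TSS, had signals of 2491 and 585 at summits 253 bp apart, with CAGGTA at the stronger. The strongest interval of all, whose sequence is given above, lay 21.1 kb from the same TSS and so past the limit of the rule, in the Antennapedia complex. Its stronger summit had a signal of 3700.3 and its weaker 1613; the stronger had 1847 in replicate 1 and 1859.8 in replicate 3, and the weaker had 893 and 262.

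The pair at opa, whose sequence is also given, had signals of 2194 and 1374, with 1229.98 and 779 in replicate 1 and 966 and 537 in replicate 3. A second pair at opa, in an intron, had signals of 1107 and 213. The gene hry, a repressor of other pair-rule genes, had 3 summits over 2025 bp, with a signal of 1004 at the strongest and 449 at the weakest. The gene run had only single-summit intervals, 5 in number, and ftz-f1 had none.

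Hox genes, which give segments their identity, and their cofactors had 7 of 11 members with a several-summit interval, and 10 of 63 intervals (15.9%) held several summits. The cofactor gene hth had signals of 1662 and 241 at intronic summits 206 bp apart, a ratio of 6.89, with AAGTCA and CAGGTA at the stronger. The Hox genes Dfd, abd-A and Antp each had AAGTCA at the stronger summit and not at the weaker, with signals of 1576 and 388 at Dfd, 1552 and 378 at abd-A and 1539 and 1060.1 at Antp. With a limit of 5 kb to the TSS in place of 20 kb, 3 of the 11 Hox genes and cofactors had a several-summit interval.

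Of 26 dorsoventral genes 10 had a several-summit interval, and 11 of their 76 intervals (14.5%) held several summits. The midline regulator sim had signals of 1652 and 271, 192 bp upstream of its TSS at the stronger, the only one of the 20 strongest several-summit intervals within 500 bp of a TSS. The BMP ligand gene dpp had an intronic pair with signals of 1517 and 914, which were 868 and 572 in replicate 1 and 680.1 and 394 in replicate 3. The gene ush, whose protein binds GATA factors, had 3 summits, with a signal of 743 at the strongest. The amnioserosa regulator zen had signals of 398 and 389, a ratio of 1.02 and among the smallest, with 225 and 221 in replicate 1 and 187 and 162 in replicate 3.

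In the other patterning lists 5.56% (eye and optic lobe genes) to 16.1% (head gap genes) of the intervals held several summits. The share over all intervals given to a gene was 7.77%. Head gap genes had 3 of 9 members with a several-summit interval (ems, croc and slp2), or 1 of 9 when intervals were given to gene bodies with 2 kb around them, and ems had signals of 1365 and 429. Segment polarity genes had 4 of 14 (en, mid, lbe and nkd), with 4 of 50 intervals (8.00%) holding several summits, and wg had 8 single-summit intervals and no other. Within 5 kb of a TSS 2 of the 14 segment polarity genes had a several-summit interval, and 1 of the 13 neuroblast genes described next. Posterior gut genes had 3 of 9: the GATA factor gene srp had signals of 1228 and 637, with CAGGTA at the stronger and AAGTCA at the weaker summit, and cad and wntD were the others. Neuroblast genes had 2 of 13 (insc and SoxN), and genes of Notch signalling and the Enhancer of split complex 3 of 15 (E(spl)m2-BFM, Brd and E(spl)m7-HLH). Eye and optic lobe genes had 1 of 11 (scro). Early zygotic genes had 1 of 9 (sisA, an X-linked counting element), or 2 by the gene body rule. By intervals, several summits were held by 3 of 23 (13.0%) for posterior gut and 2 of 28 (7.14%) for neuroblast genes. The counts were 3 of 26 (11.5%) for Notch and Enhancer of split genes, 1 of 18 (5.56%) for eye and optic lobe genes and 1 of 8 (12.5%) for early zygotic genes.

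Members of the Torso pathway, which switches tll on at the termini, had 4 of 15 (aop, cic, Raf and sty), and 2 of 15 within 5 kb of a TSS; 4 of their 32 intervals (12.5%) held several summits. Of these, aop, an ETS repressor, had signals of 1549 and 434, and cic, the repressor that Torso signalling relieves, had 837 and 247. Nuclear receptor genes had 4 of 21 (tll, kni, knrl and EcR), and 7 of their 32 intervals (21.9%) held several summits. Of these genes tll, kni and knrl are gap genes counted above. Eip75B, the gene of an ecdysone-induced receptor, had 10 single-summit intervals. Of 88 genes of cytoplasmic ribosomal proteins 2 had a several-summit interval (2.27%), RpS25 and RpS19a, but 2 of the 18 intervals of this list (11.1%) held several summits, beside 7.77% of all intervals within the distance limit of a gene. Of 119 odorant and gustatory receptor genes 0 had one, with 4 intervals in all.

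The gene tll itself had more several-summit intervals than any other gene, 4 in number with 8 summits, beside 2 single-summit intervals. The strongest lay 2.55 kb upstream of its TSS, with signals of 1879.9 and 1033 at summits 209 bp apart. These summits had 1044 and 613 in replicate 1 and 873 and 404 in replicate 3. A pair 367 bp upstream had signals of 894 and 376, a pair 6.95 kb upstream had 509.7 and 214, and a pair 4.48 kb downstream, 1409 bp apart in an interval of 2272 bp, had 1319.7 and 515. AAGTCA was at a summit in 2 of the 4 intervals. The line carries a transgene of the same gene, and what part of the signal at tll comes from additional copies of that DNA was not tested.

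After tll, the zinc finger gene shn and the PDZ protein gene bbg had 3 several-summit intervals each, and 36 genes had 2 or more. At shn the stronger summits had signals of 1549, 702 and 637, and at bbg 789, 697 and 656. Of the 20 several-summit intervals with the highest signal, 10 were intergenic, 9 intronic and 1 in a non-coding exon, and 8 lay more than 10 kb from a TSS. AAGTCA was at the strongest summit of 11 of these 20 and at the weakest of 2. Others of the 20 lay nearest to dlp, a glypican gene, with signals of 2018 and 536, and to Sox21b, with 1928 and 577. The pair nearest to CycB, a mitotic cyclin gene, had 1626 and 645. The pair nearest to CG11629 had 2272 and 1268, but lay more than 20 kb from its TSS and so past the limit of the rule.

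The ratio within an interval ran from nearly equal summits to a main summit with a small companion. At Stat92E, the transcription factor gene of the JAK/STAT pathway, the summits had signals of 1438 and 1414 (ratio 1.02), with CAGGTA at the weaker. At grim, a cell death gene 44.3 kb away and past the limit for naming a target, they had 623 and 558. At nht they had 1599 and 198 (ratio 8.07), with 786 and 53.6 in replicate 1 and 809.6 and 192 in replicate 3. At tinc they had 2082 and 305 (ratio 6.82), with CAGGTA at the stronger.

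The intervals with most summits were neighbours on arm 2R, 9 summits in 5356 bp nearest to CG13334 (dm6 chr2R:13559737-13565092) and 6 summits in 6001 bp nearest to CG42807 (chr2R:13565372-13571372). In the interval of 9, signals of 2227 and 2143 stood at 2 summits, and the others had 220 to 595. In replicate 1 these 2 summits had 929.7 and 1125 and in replicate 3 they had 1101 and 1040.1. In the interval of 6 the summits had signals of 333 to 1239, and none held AAGTCA, against 3 of the 9 in its neighbour. Neighbouring summits lay up to 1785 bp apart in the interval of 9 and up to 1805 bp in the interval of 6, the widest spacings within an interval. Without these 2 intervals the difference in the share near a TSS was −22.5 percentage points, against −22.7 with them.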

How the data were processed

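Peaks of 2 ChIP-seq replicates, numbered 1 and 3, were analysed from 4 peak lists that the authors deposited in dm6 coordinates: 1 per replicate, 1 pooled and 1 past an irreproducible discovery rate threshold. The lists were derived, per the file headers, from the replicates' alignments and a control alignment; aligner, peak caller, threshold and versions: not given in the sources used here. As deposited, the signal is the peak caller's enrichment, on an unstated scale; it was used to rank and describe summits within a list, and the authors' value differs in scale between lists. Values of −log10 q, as deposited, reached a ceiling and was not used. The deposited summit offset gave each summit's position. Replicate and pooled lists held exactly 30000 entries each, and depth is unknown.

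Entries of the thresholded list with the same arm, start and end formed an interval, and the strongest summit stood for it. Location came from the Ensembl annotation BDGP6.54 and sequence from RefSeq (Release 6). The priority was coding sequence, 5′ UTR, 3′ UTR, non-coding exon, intron, intergenic; TSS are of protein-coding genes. Letters were matched on both strands within 50 bp of a summit, for 12 words: AAGTCA and the longer AAAGTCA that contains it (Tailless), CAGGTA (Zelda), TATCGATA (DREF) and CGATA within it (BEAF-32), GAGAGA (the protein Trl), AGGTCA (nuclear receptors), CAGCTG as well as CAGGTG or CATATG (E boxes), TAATCC (Bicoid) and TTTATG (Caudal). Unpaired shares were compared with two-sided Fisher's exact tests, paired ones with exact McNemar tests and stratified ones with the Cochran-Mantel-Haenszel test, each with Benjamini-Hochberg adjustment and a threshold of 0.05 (scipy 1.17.1, statsmodels 0.14.6). Shares have exact (Clopper-Pearson) 95% intervals, which cover counting error only. The tests were tried on simulated data. Strongest summits of 1 of the 297 several-summit and 4 of the single-summit intervals lay in annotated transposable elements. Leaving out a replicate means that the same number of the strongest entries of the other replicate's list took the place of the thresholded list.

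Members and lists were chosen with earlier results of these data known. Named are the genes nearest to the 20 strongest several-summit intervals, those with most summits, extreme spacing or ratio, the 5 genes with most intervals, up to 4 members per list, tll, and intervals with AAGTCA at every summit; of these, not all are described.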

Additional observations from a re-analysis of the deposited data

Results flagged for a closer look

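Several-summit intervals were almost absent from the peaks below the authors' threshold, a set of calls that no comparison above uses. Of 25750 pooled intervals without a thresholded summit, 2 held several summits (0.00777%), with a signal of at most 148. No control samples give a level for this count.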

How the results depend on the processing

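Of 209 alternatives to the values above, 142 kept direction and side of the threshold or stayed close, 52 kept the direction without passing the test, 10 moved a count or a value, and 5 changed sign. The share near a TSS differed by −22.7 percentage points and by −29.9 to −25.8 with a replicate left out, but by −4.11 among widths between the 10th and 90th percentile of several-summit intervals, and by −10.1 with summits within 250 bp grouped. For the X chromosome the difference was −4.26 points, −3.67 among the strongest 50% of summits and −2.78 with signal strata, and neither of those passed the test; it was −9.12 without replicate 1, −4.01 without replicate 3 and −6.90 in that width range, which did. The excess of AAGTCA over single-summit intervals, 6.38 points, was not past the threshold in a 25 bp window (2.23), at the interval centre (1.01), in that width range (7.003), among the strongest 50% of summits (1.72), with grouping at 250 bp (4.26) or without replicate 1 (3.01; 5.43 without replicate 3), and was −1.01 with signal strata. The excess at stronger over weaker summits, 13.8 points, was 9.09 for summits at least 210 bp apart and 10 without replicate 1, neither past the threshold, and 13.2 without replicate 3; the deficit of weaker against single summits of like signal was −8.90 and −6.16 points at that spacing. Without a replicate the number of several-summit intervals was 170 to 266, among the strongest 50% of summits it was 188, with all pooled summits 471 and with grouping at 250 bp 526. The intron difference, −0.65, was 5.73 without replicate 3, −0.28 without replicate 1 and 0.49 with grouping; AAAGTCA against midpoints was −1.28 points at the weaker summit, and CAGGTA 9.38 without replicate 1 and 0 without replicate 3, against −5.13 with both. The causes of these changes were not tested. No paired analysis was possible because samples of 1 group share no replicate numbers with another; pairs of summits within an interval were tested. Depth is unknown, and signals near the threshold set membership.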
